A study of Rattus norvegicus with 23 samples.

Results

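The 252 genes described here were higher in healthy vein than in healthy nerve and muscle, and lower in nerves repaired in the MIV series than in the EV series 7 days after injury. They were selected on measured values, from 32545 gene identifiers. Levels are given as CPM, 1000000 times the count of a gene over the total count of its library. A member had a mean of at least 10 CPM in healthy vein, at least 3 times the means of healthy nerve and of healthy muscle. Its mean was also at least 5 CPM in EV at day 7 and at least 1.5 times the MIV mean, with every MIV library below every EV library, and 5 identifiers were left out by the rule. Healthy vein alone gave 646 genes, of which 568 reached the minimum in EV at day 7. The 252 members were 44.4% of those 568, and the other 316 served as the comparison group, called other vein genes below.

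The rats were adult females labelled WT. For the repaired groups, median nerves had been cut, with a gap of 8 mm. The design text names a single kind of repair, a graft made of a vein holding skeletal muscle (muscle-in-vein, MIV). Regenerating nerves were taken at day 3 and day 7 from the MIV series, labelled as repair after a cut plus MIV, and from the EV series, labelled as repair after a cut, with 3 libraries at each day. The labels neither spell out EV nor say what graft those nerves received. The untreated tissues, labelled day 0, were 5 libraries of healthy median nerve, 3 of epigastric vein and 3 of adductor muscle. No label ties a library to an animal of its own, so the p-values cover only the spread between these samples, which may be technical.

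A vein wall consists of an endothelial lining, a layer of smooth muscle cells and an outer coat of fibroblasts and matrix, often with fat around it. Endothelium and perivascular cells also occur inside a nerve, and new vessels grow into a nerve gap during repair. The count table pairs its Ensembl identifiers with no gene names, and 0 of the 32545 matched the reference gene table. The members are therefore described by their levels, not by their functions, and the tissue labels could not be checked against marker genes. In bulk tissue, fewer cells of a type and less RNA per cell cannot be told apart.

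Library totals ranged from 12504035 to 17314324 counts. The members held between 125724 and 392709 counts in a repaired library. Over all 23 libraries, the 95% Wilson interval of their share reached at most 0.0130 percentage points to either side, which covers counting error only. Skeletal muscle RNA differed between the repaired libraries. A total of 1274 genes with a healthy muscle mean at least 3 times those of nerve and vein took 54.1% of counts in healthy muscle. In EV at day 7 they took 2.67%, 2.71% and 2.84% in replicates 1, 2 and 3, and in MIV at day 7 9.12%, 2.68% and 19.2%. At day 3 they took 2.77%, 3.15% and 3.46% in EV and 5.85%, 3.84% and 3.75% in MIV. The members include 0 of these muscle genes.

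In healthy vein the members together took 5.69% ± 0.308 of all counts (SD, n = 3), with 5.81%, 5.92% and 5.34% in the 3 libraries. Healthy nerve gave 0.871% ± 0.0823 (SD, n = 5) and healthy muscle 0.310% ± 0.0109 (SD, n = 3). These differences were set by the choice of genes. The median member was at 86.0 CPM in healthy vein, with quartiles of 30.5 and 210.3 CPM and a highest value of 3034 CPM. The vein level was a median of 5.37 times that of the next tissue, with a range from 3.02 to 828.1. Nerve was the next tissue more often than muscle, since 229 of the 252 members had a higher mean in healthy nerve than in healthy muscle. The median member was at 11.9 CPM in nerve and 2.64 CPM in muscle.

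At day 7 the members took 2.73%, 2.39% and 2.57% of counts in EV and 1.56%, 0.917% and 0.964% in MIV. All 3 MIV libraries were below all 3 EV libraries, a separation that the rule builds in gene by gene. The group means were 2.56% ± 0.170 and 1.15% ± 0.356 (SD, n = 3 each), a ratio of 2.24 ± 0.711, where the error carries the SD of both groups. MIV was thus above healthy nerve on average, while its replicates 2 and 3 were inside the nerve range of 0.754% to 0.970%. With muscle genes taken out of the totals, healthy nerve ranged from 0.771% to 0.991%. On that basis MIV replicate 2 was inside the nerve range at 0.942%, and replicate 3 was above it at 1.19%. Replicate 1 was the highest MIV library for 200 of the 252 members.

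**Figure D1:**
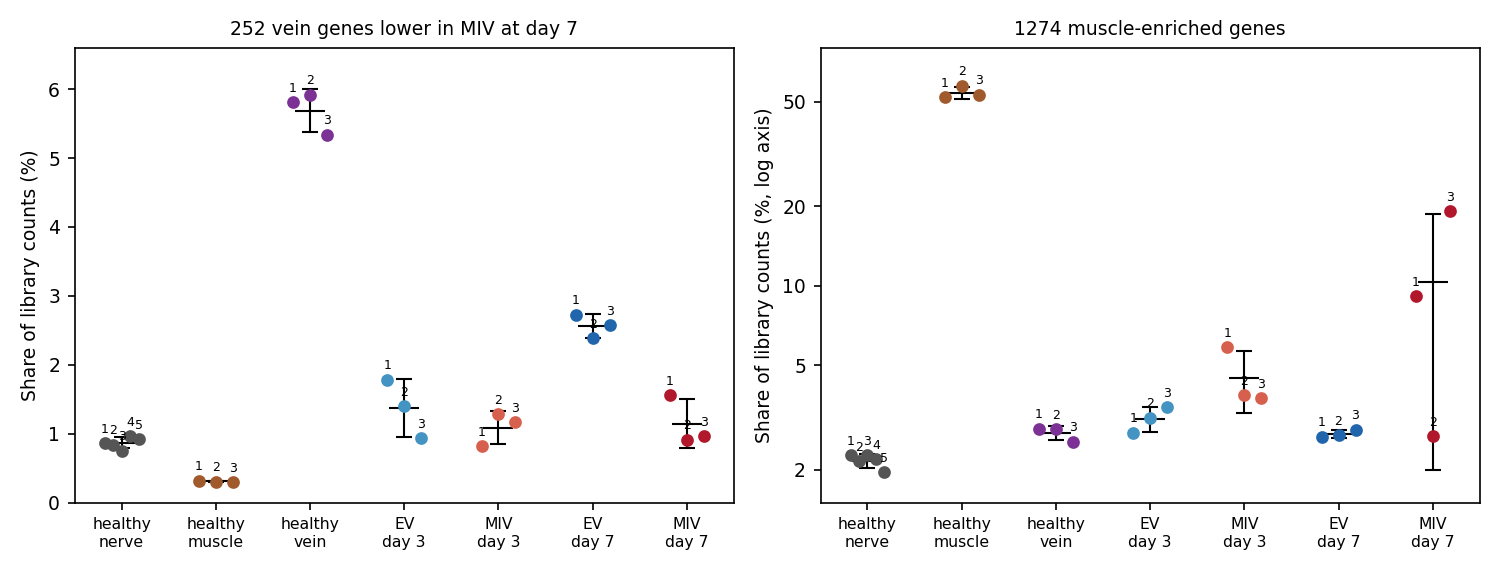
Share of library counts (y axis, %) taken by the 252 members (left, linear axis from 0) and by the 1274 muscle-enriched genes (right, log axis) in the 7 groups. Points are libraries numbered by replicate, and bars give the mean and SD. The members take 2.39% to 2.73% in EV and 0.917% to 1.56% in MIV at day 7, and the day 3 groups overlap.

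Muscle counts were also higher in 2 of the 3 MIV libraries. MIV replicate 2 had 2.68% muscle counts, inside the EV range, and a member share of 0.917%, the lowest of the 3. MIV replicate 1 had 9.12% muscle counts and the highest member share. With muscle genes taken out of the totals, the members took 1.71%, 0.942% and 1.19% in MIV at day 7, and the ratio of EV to MIV was 2.05. Scaling by trimmed mean of M values (TMM), which sets library sizes from genes of like level, gave 2.08. Leaving out 1 library at a time gave ratios from 2.03 without MIV replicate 2 to 2.73 without MIV replicate 1. These libraries also chose the members, and the part of muscle RNA in the low member share was not tested.

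The members differed widely in the size of their day 7 ratio. The median was 2.21, the quartiles 1.88 and 2.97, and the highest 26.9. A ratio from 1.5 to below 2 was found for 86 members, from 2 to below 3 for 103, from 3 to below 5 for 49, and of at least 5 for 14. In 20 members the lowest EV library was at least 2 times the highest MIV library. The 3 members just inside the threshold had ratios of 1.5105, 1.5119 and 1.5342. The nearest genes under it had 1.4996, 1.4986 and 1.4941, and libraries overlapped in the highest and the lowest of these 3. Among the other vein genes, 110 had a ratio of at least 1.5 with overlapping libraries, 22 a lower ratio without overlap and 184 neither, and 64 had a ratio below 1. With the EV minimum kept, no vein gene met the ratio and overlap criteria with MIV higher (0 of 568). The 78 vein genes under that minimum, which were low in EV, were left out of this count. Higher in MIV at day 7 without overlap, at any ratio, were 1 of the 316 other vein genes and 6.145% of all genes tested (924). The other vein genes were also higher in EV as a group, with a median ratio of 1.34 and shares of 4.93%, 4.09% and 4.15% in EV against 3.84%, 3.35% and 2.41% in MIV.

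In the fit of the 12 repaired libraries (edgeR quasi-likelihood, Benjamini-Hochberg adjustment over 15036 genes), 0 genes passed an adjusted p of 0.05 at day 7, or 0% of the genes tested, so 0 members were called. At an unadjusted p under 0.05, 146 members were lower in MIV, and 6.9% of all genes were lower (1038). DESeq2 called 57 members lower, and 1.52% of all genes (229). Of all genes, 17.7% (2664) were lower in MIV without overlap, which the rule demands of every member. Because the rule used this contrast, the members' counts are printed without being read as a result. With the replicate number as a block within day 7, edgeR called 4 members and 43 genes in all, of which 36 were higher and 7 lower in MIV. Leaving out MIV replicate 2 gave 10 members and 688 genes in all, and leaving out MIV replicate 1 gave 4 and 16.

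The largest ratio of means at day 7 belonged to ENSRNOG00000047225. Its CPM were 30.3, 3.29 and 30.3 in EV and 0.528, 1.46 and 0.383 in MIV, so EV replicate 2 was near the MIV libraries. At day 3 it was at 18.4, 39.6 and 39.6 in EV and at 27.1, 42.4 and 0.986 in MIV, where only MIV replicate 3 was low. In healthy nerve, replicate 2 was at 22.8 CPM and the other 4 libraries between 0.662 and 1.97 CPM. The gene was thus uneven between libraries of the same group in healthy nerve, in MIV at day 3 and in EV at day 7, and its ratio of 26.9 at day 7 rests on EV replicates 1 and 3.

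ENSRNOG00000018798 had the second lowest fitted change at day 7. It was at 10.2, 20.5 and 5.37 CPM in EV and at 3.76, 0.583 and 0 CPM in MIV. Its vein libraries were at 14.8, 12.7 and 8.81 CPM and its nerve libraries all under 0.25 CPM. At day 3 it was low in both series, at 0.160, 1.88 and 3.11 CPM in EV and at 0, 0.530 and 1.86 CPM in MIV. The rule demands the gap between the series at day 7 for this gene. At day 3, which the rule did not use, the series overlapped.

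Day 3 was the only comparison of the series whose libraries had no part in choosing the members. The members took 1.78%, 1.40% and 0.937% of counts in EV replicates 1, 2 and 3, and 0.824%, 1.28% and 1.17% in MIV. The means were 1.37% ± 0.423 and 1.09% ± 0.239 (SD, n = 3 each), the groups overlapped, and the ratio of 1.26 ± 0.476 differed from 1 by less than its error. EV replicate 1 was the highest EV library for 179 members and EV replicate 3 the lowest for 185. MIV replicate 1 was the lowest MIV library for 190. The spread from the lowest to the highest library within each series was thus wider than the gap between the series means.

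Gene by gene, most members were on the lower side in MIV at day 3. Of the 252, 220 (87.3%) had a negative log2 fold change. The median was -0.52, and the quartiles were -0.94 and -0.23. The other vein genes had 202 of 316 negative (63.9%) with a median of -0.11, and all genes tested 8141 of 15036 (54.1%) with a median of -0.02. Members of a library share its depth and makeup, so they are not replicates and these counts carry no test. Without EV replicate 1, 166 of the 252 members were negative and their median was -0.20, while the other vein genes had a median of 0.02. Without EV replicate 3 the members' median was -0.72.

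The count of lower members depended on which libraries were compared. MIV replicate 1 was below EV replicates 1, 2 and 3 for 231, 219 and 170 of the 252 members. MIV replicate 2 was below them for 209, 176 and 73, and MIV replicate 3 for 218, 184 and 84. Against EV replicate 3, the library with the lowest member share of its series, most members were higher in MIV replicates 2 and 3. Against EV replicate 1 most were lower in every MIV library. Over all genes tested, the corresponding 9 pairs lay between 42.6% and 56.4%. The other vein genes also moved with the libraries. They ran from 36.4% (MIV replicate 2 against EV replicate 3) to 68.0% (MIV replicate 3 against EV replicate 1). The members ran from 29.0% to 91.7%.

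**Figure D2:**
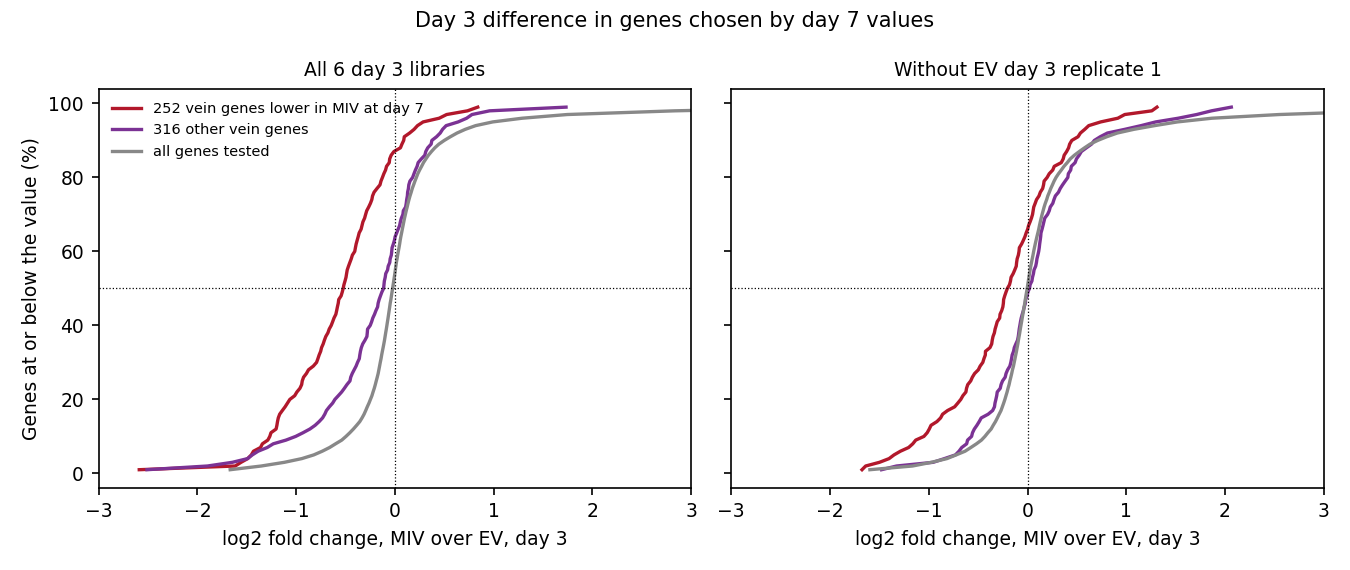
Cumulative share of genes (y axis, %, 1st to 99th percentile) against the log2 fold change of MIV over EV at day 3 (x axis) for the members, the other vein genes and all genes tested, with all 6 libraries (left) and without EV replicate 1 (right). The members' median is at -0.52 on the left and -0.20 on the right, and the other vein genes move from -0.11 to 0.02.

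No single member passed the test at day 3. With edgeR 0 members and 0 of 15036 genes (0%) had an adjusted p under 0.05, and the lowest adjusted p of a member was 0.254. At an unadjusted p under 0.05, edgeR gave 27 members lower and 3 higher in MIV, against a background of 1.44% of all genes lower (217) and 3.71% higher (558). DESeq2 called 5 members lower and 0 higher at an adjusted p under 0.05, against 0.0998% of all genes called lower (15) and 1.56% called higher (234). Without regard to a model, 34 members (13.5%) had all 3 MIV libraries below all 3 EV libraries, and 3 had the reverse. The backgrounds were 3.93% of all genes (591) for lower and 7.3% (1097) for higher, and the other vein genes had 18 of 316 (5.70%) in each direction. The share of members without overlap was thus above the background for lower in MIV and below it for higher.

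Of the 5 members called by DESeq2, 4 had no overlap between the series, with EV means of 4.36 to 23.6 CPM and MIV means of 1.55 to 9.13 CPM. The fifth, ENSRNOG00000024986, also had the lowest edgeR change of any member at day 3. Its CPM were 77.3, 10.3 and 1.28 in EV and 1.33, 3.91 and 1.91 in MIV. EV replicate 1 was far above the rest, and EV replicate 3 was below all MIV libraries. The log2 fold change was -3.62 ± 1.27 (SE), with an adjusted p of 0.648 in edgeR and 0.0323 in DESeq2. It was -1.27 without EV replicate 1. In healthy vein it was at 264.6, 89.2 and 603.6 CPM, so this gene also varied strongly between vein libraries.

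ENSRNOG00000034290 showed a like pattern. It was at 535.3, 106.1 and 11.3 CPM in EV and at 36.3, 49.8 and 6.96 CPM in MIV at day 3, with overlap. Its vein libraries were at 532.3, 155.9 and 1879 CPM, and its nerve libraries at 2.25 CPM or less. The log2 fold change of -2.78 ± 1.23 (SE) had an adjusted p of 0.960 in edgeR, and it was -0.90 without EV replicate 1. At day 7 it was at 269.2, 228.3 and 687.9 CPM in EV and at 195.6, 133.8 and 20.2 CPM in MIV.

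Of the members that leaned the other way at day 3, ENSRNOG00000015318 had the largest change, 1.25 ± 0.441 (log2, SE; edgeR adjusted p = 0.658). It was at 47.7, 40.8 and 13.9 CPM in EV and at 105.1, 65.6 and 70.2 CPM in MIV, without overlap. At day 7 the order was the opposite, which the rule demands of every member. The gene was then at 119.5, 164.9 and 107.3 CPM in EV and at 82.5, 33.4 and 61.7 CPM in MIV. Its vein libraries were at 38.6, 45.5 and 34.5 CPM, below all 3 MIV libraries of day 3. ENSRNOG00000035603 was next, but it rested on 6, 3 and 0 counts in EV and 7, 16 and 3 in MIV.

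Members with a day 7 ratio of at least 3 had a lower day 3 median in MIV than those below it. The median day 3 log2 fold change was -0.38 for members with a day 7 ratio below 2, -0.49 for 2 to 3, -0.93 for 3 to 5 and -1.11 for at least 5 (n = 86, 103, 49 and 14). Without EV replicate 1 of day 3 the corresponding medians were -0.10, -0.15, -0.62 and -1.25. The place of the 14 genes at the top depended on the libraries. Their median was -0.76 without EV replicate 2 and -0.68 without MIV replicate 1, where members at 3 to 5 had -0.92 and -0.70. It was -1.114 without MIV replicate 3, where members at 3 to 5 had -1.119. Across the members, the fitted changes at the 2 days, which share no library, correlated with r = 0.365 (Pearson) and rho = 0.409 (Spearman, n = 252 genes). Across all 568 vein genes r was 0.453 and rho 0.515. Genes within a library are not independent replicates, so these values describe the genes only.

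The most vein-restricted members leaned lowest at day 3. Those with a vein level at least 10 times that of the next tissue had a median of -0.98 (n = 56), with 52 lower in MIV and 15 lower without overlap. Those at 5 to 10 times had -0.51 (n = 83), with 73 lower and 11 without overlap. Those at 3 to 5 times had -0.47 (n = 113), with 95 lower and 8 without overlap. Of all genes tested, 54.1% were lower and 3.93% lower without overlap. The same order of medians was found among other vein genes, at -0.52 (n = 42), -0.18 (n = 78) and -0.07 (n = 196). Without EV replicate 1 the members' medians were -0.61, -0.23 and -0.11, and those of the other vein genes -0.10, -0.02 and 0.06. Without EV replicate 3 the lower 2 groups of other vein genes were level, at -0.159 (5 to 10 times) and -0.164 (3 to 5 times). By absolute level the medians were nearly equal. Members between 10 and 100 CPM in vein had a median of -0.54 (n = 137), those between 100 and 1000 CPM -0.52 (n = 105) and the 10 above 1000 CPM -0.55.

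For the members, the gap between the series was wider at day 7 than at day 3, which the choice by day 7 values favours. The median member was at 20.4 CPM in EV at day 3 and 36.7 CPM at day 7, and at 13.8 and 16.3 CPM in MIV. Relative to its own healthy vein level, the median member stood at 24.4% at day 3 and 48.3% at day 7 in EV. In MIV it stood at 16.9% and 20.3%, against 18.2% in healthy nerve. For the other vein genes the day 7 medians were 56.5% in EV and 45.8% in MIV. Since the rule used the day 7 libraries of both series, the size of the gap at day 7 and its widening from day 3 are descriptions.

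**Figure D3:**
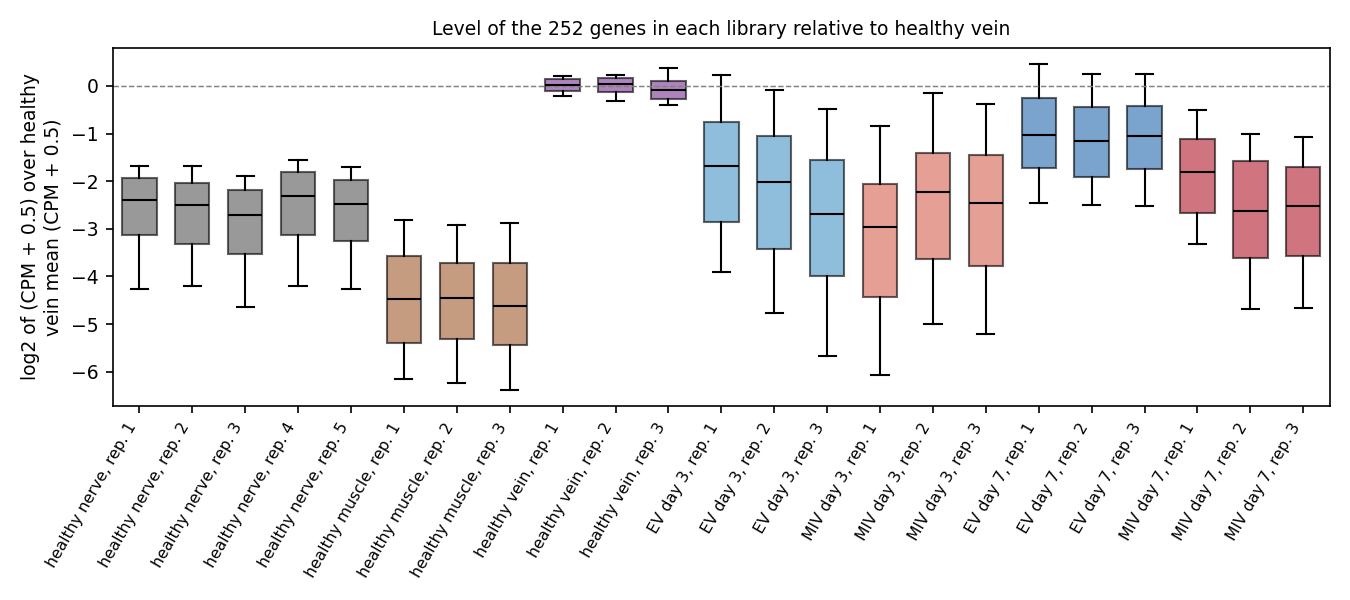
Level of the 252 members in each of the 23 libraries, as log2 of CPM plus 0.5 over the healthy vein mean plus 0.5 (y axis). Boxes give the quartiles and the median, and whiskers the 10th and 90th percentiles over genes. EV at day 7 lies closest to vein, and MIV at day 7 near healthy nerve, with replicate 1 above the other 2.

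At day 7, 43 members had an EV mean above the healthy vein mean, and 7 had such a MIV mean. At least 50% of the vein mean was reached by 122 members in EV and 34 in MIV. Levels below the healthy nerve mean were found for 14 members in EV and 82 in MIV at day 7, and for 85 and 116 at day 3. The 3 MIV libraries at day 7 had 56, 110 and 127 members below the healthy nerve mean. Their summed member levels were 60.7%, 35.8% and 37.6% of the EV mean.

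The time courses of single members fell into a few patterns. The mean was higher at day 7 than at day 3 in both series for 158 members, higher in EV and lower in MIV for 62, lower in both for 31, and lower in EV alone for 1. With a 2-fold change as the boundary, 78 members were up in both series, 60 up in EV and within 2-fold in MIV, 85 within 2-fold in both, and 21 within 2-fold in EV and down in MIV. No member was up 2-fold in EV and down 2-fold in MIV (0 of 252). The median ratio of day 7 to day 3 was 2.14 in EV and 1.34 in MIV. All 3 day 7 libraries were above all 3 day 3 libraries for 157 members in EV and 69 in MIV, and below for 9 and 24. Of all genes tested, 23.8% were above and 21.5% below in this way in EV, and 12.4% and 19.9% in MIV. The day 7 libraries were used by the rule, so nothing is read from these shares.

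**Figure D4:**
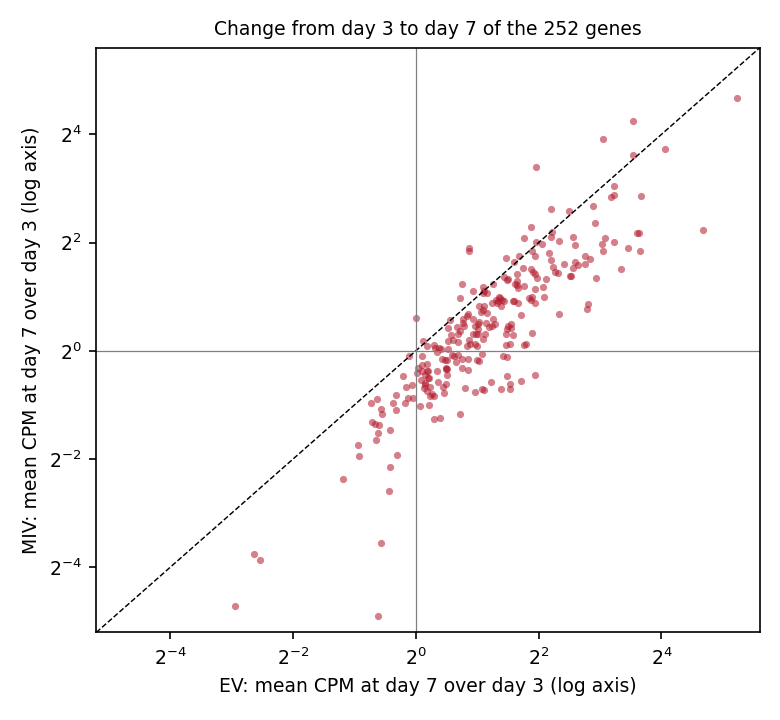
Ratio of mean CPM at day 7 to day 3 in EV (x axis, log scale) and in MIV (y axis, log scale), 1 point per member, with the line of equal ratios dashed and ratios of 1 as gray lines. Of the 252 points 229 lie below the line of equal ratios, where the choice of genes by day 7 values pulls them, and 158 are above 1 in both series.

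In the fit over all genes (edgeR, adjusted p under 0.05), EV had 87 members higher and 3 lower at day 7 than at day 3, where 9.41% of all genes were higher (1415) and 10.2% lower (1532). MIV had 39 members higher and 15 lower, where 7.39% of all genes were higher (1111) and 8.09% lower (1216). The other vein genes had 66 higher and 8 lower of 316 in EV, and 58 and 9 in MIV. The rule favours high EV and low MIV values at day 7, so the difference between the 2 member counts is not an independent result. The counts also depended on single libraries. In EV they were 40 members without replicate 2 of day 3, 48 without replicate 3 of day 3 and 57 without replicate 1 of day 7, where all genes gave 1390, 1585 and 1611 calls. In MIV they were 18 members (9 higher and 9 lower) without replicate 3 of day 3, 23 (14 and 9) without replicate 2 of day 3 and 32 (17 and 15) without replicate 1 of day 7. All genes gave 804, 938 and 1463 calls there. The excess of higher over lower members in MIV was thus absent without replicate 3 of day 3.

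The steepest increase in both series was that of ENSRNOG00000009448. It was at 1.84, 0.377 and 0.473 CPM in EV and at 0.348, 1.46 and 0.522 CPM in MIV at day 3. At day 7 it reached 25.3, 37.9 and 37.6 CPM in EV and 21.7, 14.9 and 23 CPM in MIV. These day 7 levels were of the order of healthy nerve, at 14 to 24.9 CPM, and below healthy vein, at 45.7, 47.7 and 79.4 CPM. The gene was thus nearly absent at day 3 in all 6 libraries, far below both healthy tissues.

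ENSRNOG00000020560, the next in MIV, had vein levels of 726.5, 784.8 and 587.3 CPM and nerve levels of 19.4 to 53.8 CPM. It was at 24.6, 3.24 and 1.15 CPM in EV and at 2.43, 3.58 and 3.42 CPM in MIV at day 3. At day 7 EV was at 104.5, 110.0 and 122.2 CPM and MIV at 102.8, 50.4 and 26.6 CPM. MIV replicate 1 was close to the EV libraries and the other 2 were lower. ENSRNOG00000035603, the next in EV, was at 7.80, 4.39 and 5.83 CPM in EV and at 4.29, 0.656 and 2.76 CPM in MIV at day 7, against at most 1.06 CPM in any day 3 library.

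Among the members lower at day 7 than at day 3, ENSRNOG00000014320 was lower in both series. It was at 95.6, 257.5 and 75.6 CPM in EV and at 7.36, 129.1 and 51.5 CPM in MIV at day 3. At day 7 it was at 27.6, 11.0 and 17.3 CPM in EV and at 4.82, 1.02 and 1.30 CPM in MIV. The day 3 levels exceeded healthy vein, at 40.2, 39.8 and 27.8 CPM, in all libraries but MIV replicate 1. ENSRNOG00000014343 was at 110.3, 106.4 and 77.5 CPM in EV and at 40.9, 80.1 and 114.7 CPM in MIV at day 3, above its vein levels of 30.9, 31.4 and 20.3 CPM. By day 7 it was at 22.5, 9.25 and 15.5 CPM in EV and at 9.24, 3.35 and 4.83 CPM in MIV. For both genes the series overlapped at day 3.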

How the data were processed

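RNA was measured by RNA-seq in 23 rat libraries. Per the labels' protocols, poly-A RNA from 350 ng of total RNA went into non-directional libraries, so reads of overlapping sense and antisense genes are mixed. CASAVA and HISAT2 are named in the submitters' processing notes. The versions, counter, build and annotation were not given in the sources used here. Counts of near-identical gene copies are uncertain. The deposited table holds the authors' raw counts for 32545 identifiers, not normalized, and all 23 columns matched a library title. The RefSeq table (GRCr8, 47357 rows) held 0 Ensembl identifiers, so gene lists and markers could not be measured and no names, positions or sequences are printed.

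The members and lists were chosen with earlier results of these data known. CPM used column totals. Tests used R 4.3.3 and edgeR 4.0.16 (filterByExpr at its minimum count of 10 and total of 15, TMM, robust glmQLFit, glmQLFTest, Benjamini-Hochberg adjustment, threshold 0.05) on the 12 repaired libraries. This kept 15036 genes with a biological coefficient of variation of 37.1%, including all 252 members and all 316 other vein genes. The SE is the log2 fold change over the root of F. DESeq2 1.42.0, other scalings, no filter, all 23 libraries, the 2 compared groups alone, a replicate block and leaving out each library were alternatives. On simulated counts with 200 genes changed 4-fold, edgeR recovered 161. The changed genes were taken above a minimum level, and genes were drawn independently. The median member's ratio of EV to MIV was smaller, at 1.44 at day 3 and 2.21 at day 7. The recovery is thus no measure of the power to call members. Without names, the rule for named genes allowed 2 identifiers per direction and comparison, those with the lowest and highest log2 fold changes (called members for the time courses).

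Libraries were grouped by their labels. At day 7, EV and MIV libraries with the same number deviated somewhat alike from their group means. The correlations were 0.224, 0.201 and 0.177 for numbers 1, 2 and 3. The numbers were therefore tried as pairs in the fit with a block within day 7, while the main fit used no pairing. At day 3 the correlations were -0.09, 0.239 and -0.01. The trial of pairs rests on these values and not on the labels. Number 2 at day 3 was as high as the day 7 values, and unlike numbers were not compared. The values thus do not establish pairs. Fits with the block within day 7, or over 2 groups alone, were added after seeing the data.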

Additional observations from a re-analysis of the deposited data

Results flagged for a closer look

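A healthy nerve library stood apart from the other 4 for 2 of the named genes, both times replicate 2. ENSRNOG00000047225 was at 22.8 CPM there, and ENSRNOG00000034290 at 2.25 CPM with the other nerve libraries at 0 to 0.510 CPM. The healthy nerve libraries were tested for 10 named genes and for the members' share of counts, 11 groups of 5 values in all, and chance alone flags about 1 in 20. ENSRNOG00000047225 was also uneven in MIV at day 3, at 27.1, 42.4 and 0.986 CPM. No healthy nerve library entered the day 3 or day 7 contrasts, but the nerve mean entered the choice of members.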

How the results depend on the processing

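The members' median at day 3 stayed below 0 under every alternative run. The ratio of member counts at day 7 stayed between 2.03 and 2.73. The rule chose the members by their ratio in these same libraries, so that range is only a description. The counts of called genes moved most, and the cause was not tested. At day 3 edgeR called 0 genes, DESeq2 249 (5 members), the fit of all 23 libraries 160 (1 member) and the fit with a replicate block on the 2 groups alone 3. The other vein genes' median at day 3 ran from -0.218 to 0.0202 with 1 library left out, and it was above 0 without EV replicate 1. At day 7 edgeR called 0 genes, DESeq2 868 (57 members), the fit of all 23 libraries 1135 (72 members), the replicate block within day 7 43 (4 members) and the block on the 2 groups alone 4. With 1 library left out the day 7 count ran from 0 to 688 (0 to 10 members). For EV over time, 2947 genes became 4533 with all 23 libraries and 1390 to 2857 with 1 library left out, and 90 members became 40 to 113. For MIV over time, 2327 genes became 3685 with DESeq2, 4153 with all 23 libraries, 804 with the 2 groups alone and 804 to 3569 with 1 library left out. The 54 members became 96, 102, 26 and 18 to 73. With a replicate block over all 12 repaired libraries the counts were 0 at day 3, 0 at day 7, 2611 for EV and 1787 for MIV. The rule itself gave 165 members with TMM, 190 with totals without muscle genes (187 shared), 166 at a ratio of at least 2 and 139 at a vein ratio of at least 5. Healthy muscle's member share was 0.675% of counts outside muscle genes. Low counts limit the weakest members, whose lowest repaired library had 0 counts.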
